A study of Mus musculus with 8 samples.

Results

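Growth arrest and stress genes are described here in the lungs of young mice given retinoic acid, dexamethasone or both. They are 8 of the 8251 genes that a probe set of the array reads under 1 symbol, namely Gadd45a, Gadd45b, Gadd45g, Ddit3, Ddit4, Errfi1, Btg1 and Btg2, taken by their symbols in the annotation of the array. They were read by 10 of the 12488 probe sets of an Affymetrix mouse array, since Gadd45b and Errfi1 had 2 probe sets each, and no other gene shared the annotation of these probe sets. RNA of whole lung was hybridised to 8 arrays, 2 in each of 4 groups. Mice of the RA-Dex group received retinoic acid on day 3 and dexamethasone on day 4, those of the Dex group oil and then dexamethasone, and those of the RA group retinoic acid and then saline. The labels leave the name Dil unexplained, and that group was read as oil followed by saline, the one combination not otherwise used. The labels used here give no strain, dose or interval from the last treatment to collection. Nor do they say whether replicates a and b are different animals or pools, and the p-values therefore cover only the spread between these arrays, which may be technical.

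These genes encode brakes on growth that cells engage under stress. The Gadd45 proteins are small acidic proteins that bind the cell cycle inhibitor p21, the replication clamp PCNA and the mitotic kinase Cdk1, and that can switch on the kinase Map3k4 upstream of p38 and JNK. Ddit4, also called REDD1, holds back mTORC1 through the TSC complex. Errfi1, also called MIG6, binds the kinase domain of the EGF receptor and blocks it. Btg1 and Btg2 recruit the CCR4-NOT complex that shortens the poly(A) tails of messenger RNA, and Ddit3, also called CHOP, is a transcription factor of the C/EBP family made during stress of the endoplasmic reticulum. Dexamethasone is a synthetic ligand of the glucocorticoid receptor, and glucocorticoids are known to halt the subdivision of the air sacs in newborn rodents.

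Ddit4, Gadd45g, Errfi1 and Gadd45b, each by its brightest probe set, rose in the lungs given dexamethasone, with and without earlier retinoic acid. Gadd45a, Ddit3, Btg1 and Btg2 did not pass the test in either setting. After retinoic acid the other probe set of Gadd45b did not pass. Within a setting, calls of Gadd45b and Errfi1 were lost in some alternative fits. The values are linear signals on a scale common to the arrays, and each change was tested as a log2 fold change by limma over 7309 probe sets, all 10 of the members' among them, with an adjusted p (Benjamini-Hochberg) under 0.05 counted as a change. In the comparison of all 4 dexamethasone arrays with the other 4, in which each arm has equal weight, 4 of the 8 genes rose, where 4.26% of all probe sets rose. None of the 8 fell, where 3.57% of all probe sets fell. At an unadjusted p under 0.05 the limma fit gave 4 rises and 1 fall among the 8 genes, the fall being Gadd45a, where 1557 of the 7309 probe sets were under it in either direction. The median log2 fold change of the 8 genes was 0.65, against -0.03 over all probe sets tested. For the same 4 genes every dexamethasone array was above every other array, as it was for 6.8% of all probe sets. The 8 genes, each read by its brightest probe set, were chosen with earlier results of these data known. Their excess over all probe sets is therefore a description and no independent result.

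**Figure D1:**
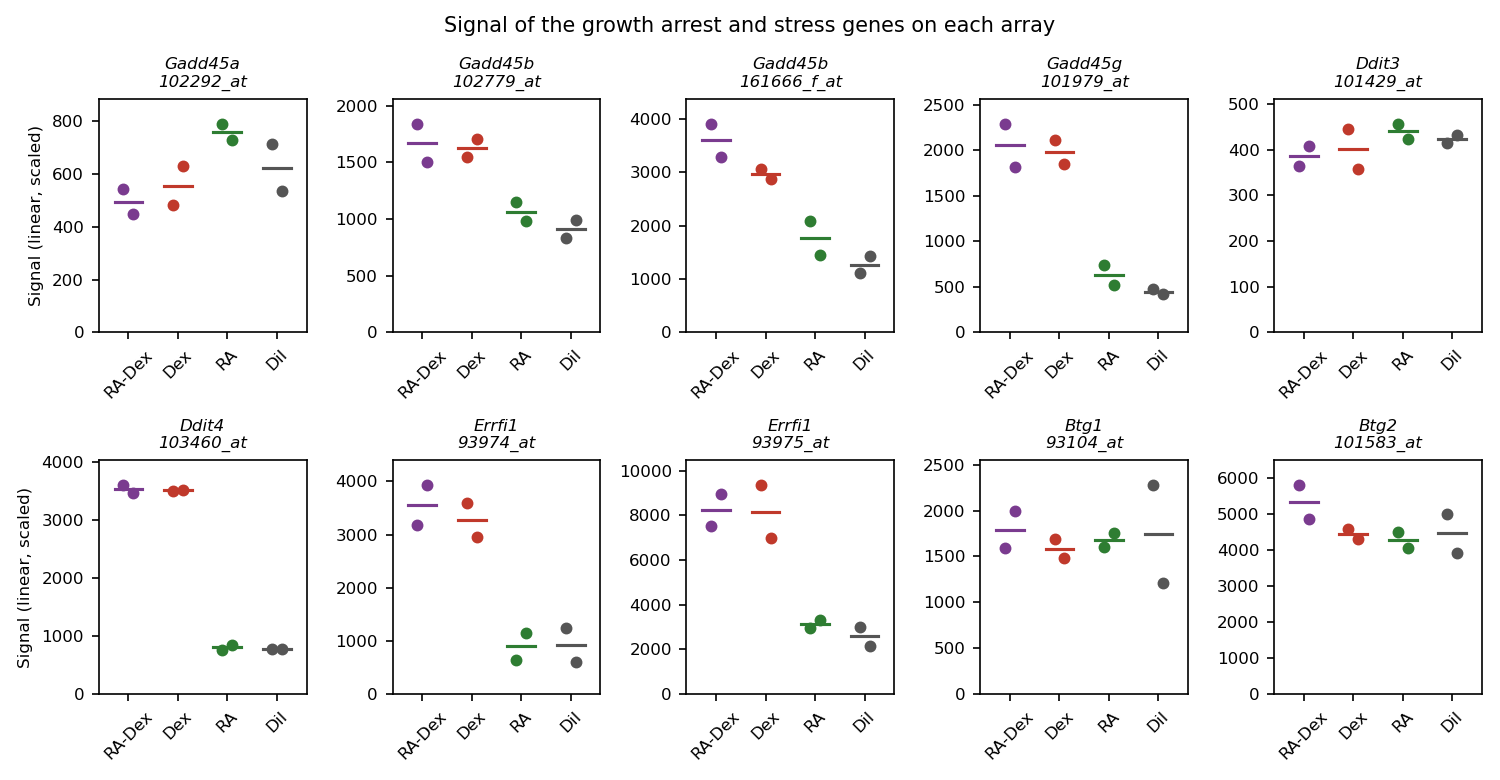
Signal (linear, scaled) of each of the 10 probe sets on the 8 arrays, by group from left to right RA-Dex, Dex, RA and Dil, with 1 point per array and a line at the group mean. For Ddit4, Gadd45g and both probe sets of Gadd45b and Errfi1 every dexamethasone array lay above every other array, while for Gadd45a, Ddit3, Btg1 and Btg2 the dexamethasone arrays overlapped the others.

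Of the 8 genes, 4 moved together, so the sequences at their start sites are shown for comparison. The windows are RefSeq's (mouse build GRCm38.p6), run from 250 bases before to 50 bases after the start of transcription, and were found for all 8 genes. They lie at chr10:59951721-59952020 on the minus strand for Ddit4, at chr13:51846425-51846724 on the plus strand for Gadd45g, at chr4:150854820-150855119 on the plus strand for Errfi1 (the second of its 2 start sites) and at chr10:80929841-80930140 on the plus strand for Gadd45b. Capitals mark a match, on either strand, to a TATA box (TATAAA), a cyclic AMP response element (TGACGTCA) or the ATF4-C/EBP element (TGATGNAA); the window of Ddit4 held none of these.
Ddit4: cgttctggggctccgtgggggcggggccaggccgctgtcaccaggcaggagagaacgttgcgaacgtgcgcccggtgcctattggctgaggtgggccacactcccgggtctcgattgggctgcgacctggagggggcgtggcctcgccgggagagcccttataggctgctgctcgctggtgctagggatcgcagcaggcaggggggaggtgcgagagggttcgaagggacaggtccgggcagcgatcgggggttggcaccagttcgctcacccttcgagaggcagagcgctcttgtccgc
Gadd45g: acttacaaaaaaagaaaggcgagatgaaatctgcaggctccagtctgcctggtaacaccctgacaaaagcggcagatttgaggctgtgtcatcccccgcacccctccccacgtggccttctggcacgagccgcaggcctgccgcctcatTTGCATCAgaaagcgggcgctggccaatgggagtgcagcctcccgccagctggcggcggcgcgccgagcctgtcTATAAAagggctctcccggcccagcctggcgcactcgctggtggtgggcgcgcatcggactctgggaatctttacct
Errfi1: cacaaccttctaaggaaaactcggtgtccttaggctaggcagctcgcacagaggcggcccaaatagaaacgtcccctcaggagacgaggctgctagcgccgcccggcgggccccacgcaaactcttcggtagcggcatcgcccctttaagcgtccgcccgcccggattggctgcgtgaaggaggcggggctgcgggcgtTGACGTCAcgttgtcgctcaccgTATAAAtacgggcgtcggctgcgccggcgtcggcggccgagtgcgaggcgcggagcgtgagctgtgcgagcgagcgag
Gadd45b: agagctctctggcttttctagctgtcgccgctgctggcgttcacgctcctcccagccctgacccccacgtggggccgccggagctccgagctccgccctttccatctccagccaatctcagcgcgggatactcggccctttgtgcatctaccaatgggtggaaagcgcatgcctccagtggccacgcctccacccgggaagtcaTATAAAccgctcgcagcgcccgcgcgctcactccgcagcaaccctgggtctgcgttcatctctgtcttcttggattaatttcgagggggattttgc

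TATAAA began 27 bases before the start of Gadd45g, 28 before that of Errfi1 and 46 before that of Gadd45b, and was absent from the window of Ddit4. It also lay 26 bases before the start of Btg1, which did not pass the test, and 13.6% of the 32851 promoter windows of the mouse held it. The ATF4-C/EBP element lay 101 bases before the start of Gadd45g (3.97% of all windows). The cyclic AMP response element lay 51 bases before the start of Errfi1 and 166 before that of Btg2, where 1.79% of all windows held it. The AP-1 motif TGANTCA lay in the window of Ddit3 alone among the 8 genes (7.81% of all windows). The sequence AGAACA, 1 arm of the glucocorticoid response element, was in none of the members' 9 windows and in 19.0% of all windows. The full element, with its arms AGAACA and TGTTCT 3 bases apart, was also in none of them, and in 0.00913% of all windows. The serum response element was in none of the 9 and in 1.63% of all. The windows of the 4 genes that rose were rich in G and C (62.0% to 69.0% in those shown, against a median of 52.7% over all), as were those of the 4 that did not (60.7% to 72.0%). The other window of Errfi1, at its first start site, held 42.0% G and C and none of the motifs named here, TATAAA and the cyclic AMP response element included.

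Ddit4, the inhibitor of growth signalling, had the largest log2 fold change of the 8 genes and the smallest standard error. Its signals were 3604 and 3478 in RA-Dex lungs and 3513 and 3522 in Dex lungs, against 765 and 844 in RA lungs and 782 and 774 in Dil lungs. The lowest dexamethasone array stood far above the highest of the others, and within each side the arrays hardly differed. The rise was 4.46-fold over both arms (log2 fold change 2.16 ± 0.11 SE, n = 4 against 4, limma adjusted p = 1.49e-06), the 21st largest of the 7309 probe sets. It was 4.41-fold in RA-Dex against RA (2.14 ± 0.16, n = 2 against 2, adjusted p = 5.78e-05) and 4.52-fold in Dex against Dil (2.18 ± 0.16, n = 2 against 2, adjusted p = 4.49e-05), comparisons that have no array in common. Their errors and p-values nevertheless share an estimate of spread from all the arrays.

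Errfi1, the brake on the EGF receptor, was read by 2 probe sets that moved alike. On 93975_at, the brighter of the pair, signals were 7546 and 8945 in RA-Dex lungs and 9342 and 6968 in Dex lungs, against 2976 and 3298 in RA lungs and 3011 and 2152 in Dil lungs. The dexamethasone arrays were again all above the others. The rise was 2.88-fold over both arms (1.53 ± 0.14 SE, n = 4 against 4, limma adjusted p = 7.02e-05), 2.62-fold in RA-Dex against RA (adjusted p = 0.00309) and 3.17-fold in Dex against Dil (adjusted p = 0.00102). On 93974_at signals were 3188 and 3925 in RA-Dex lungs and 3594 and 2953 in Dex lungs, against 641 and 1149 in RA lungs and 1236 and 607 in Dil lungs. The RA pair and the Dil pair each spread widely on this probe set, and the rise was 3.94-fold with a wider error (1.98 ± 0.24, adjusted p = 0.000454). The RA-Dex against RA call of 93975_at fell short when RA-Dex replicate b was left out (log2 fold change 1.27, adjusted p = 0.0551). When the filter on low signal was dropped, that call (0.0932) and the one in Dex against Dil (0.0723) also fell short.

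Within the Gadd45 family the members differed. Gadd45g had signals of 2290 and 1819 in RA-Dex lungs and 2113 and 1848 in Dex lungs, against 736 and 526 in RA lungs and 479 and 421 in Dil lungs. All 4 dexamethasone arrays lay above the others, and the Dil pair was the lowest. Gadd45g rose 3.80-fold over both arms (1.93 ± 0.15 SE, n = 4 against 4, limma adjusted p = 2.91e-05), the 31st largest rise. The rise was 3.28-fold in RA-Dex against RA (1.71 ± 0.22, adjusted p = 0.0016) and 4.40-fold in Dex against Dil (2.14 ± 0.22, adjusted p = 0.000442).

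Gadd45b was first known as a gene switched on during myeloid differentiation. On 161666_f_at, its brighter probe set, it had signals of 3911 and 3296 in RA-Dex lungs and 3057 and 2885 in Dex lungs, against 2088 and 1458 in RA lungs and 1115 and 1428 in Dil lungs. The groups stepped down in that order, with the RA-Dex pair above the Dex pair and the RA pair above the Dil pair. The rise with dexamethasone was 2.20-fold over both arms (1.14 ± 0.15 SE, n = 4 against 4, limma adjusted p = 0.000738), 2.06-fold in RA-Dex against RA (adjusted p = 0.0192) and 2.35-fold in Dex against Dil (adjusted p = 0.00807). The suffix _f is one by which the maker marked probe sets of sequence families.

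On 102779_at, which has no such mark, Gadd45b had signals of 1839 and 1506 in RA-Dex lungs and 1549 and 1706 in Dex lungs, against 1149 and 982 in RA lungs and 832 and 989 in Dil lungs. The dexamethasone arrays were above the others here too, but the RA-Dex and Dex pairs overlapped, as did the RA and Dil pairs. The rise was 1.68-fold over both arms (0.74 ± 0.13, adjusted p = 0.00614) and 1.79-fold in Dex against Dil (0.84 ± 0.19, adjusted p = 0.0381). In RA-Dex against RA it did not pass on this probe set (0.65 ± 0.19, adjusted p = 0.102). In the comparisons of 2 arrays with 2 the calls of Gadd45b depended on single arrays. For 161666_f_at in Dex against Dil, the adjusted p became 0.0789 when Dex a was left out, 0.0655 for Dex b and 0.0563 for Dil a. In RA-Dex against RA it became 0.172 when RA-Dex a was left out, 0.0843 for RA-Dex b and 0.0877 for RA b. The log2 fold change over these fits lay between 0.78 and 1.28.

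Gadd45a, the family member that p53 induces after DNA damage, had signals of 541 and 448 in RA-Dex lungs and 481 and 630 in Dex lungs, against 788 and 727 in RA lungs and 713 and 534 in Dil lungs. Its highest pair was the RA pair, and the dexamethasone arrays overlapped the Dil arrays. The log2 fold change with dexamethasone was -0.39 ± 0.17 SE (n = 4 against 4, limma adjusted p = 0.212), with a 95% interval of -0.77 to -0.01. It was -0.62 ± 0.24 in RA-Dex against RA (adjusted p = 0.233) and -0.17 ± 0.24 in Dex against Dil (adjusted p = 0.83).

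The difference between the paralogs was tested on the log2 ratio of their signals within each array, which does not depend on how the arrays were scaled. The ratio of Gadd45g to Gadd45a was 1.55 to 2.14 on the dexamethasone arrays and -0.57 to -0.10 on the others, a difference of 2.32. The ratio of Gadd45b (161666_f_at) to Gadd45a was 2.20 to 2.88 on the dexamethasone arrays and 0.65 to 1.42 on the others, a difference of 1.53. The ratio of Gadd45g to Gadd45b was -0.86 to -0.53 on the dexamethasone arrays and -1.76 to -1.22 on the others, a difference of 0.79. In each of the 3 ratios the sides did not overlap, and the two-sided exact permutation test gave p = 0.0286 (adjusted over the 3 ratios 0.0286, n = 4 against 4), the smallest p this design allows. The test shuffled arrays without regard to retinoic acid, and the ratio of Gadd45g to Gadd45b follows from the other ratios. Since the members were chosen with earlier results of these data known, this p is no independent support. On these arrays Gadd45g gained on both of the other paralogs, and Gadd45b on Gadd45a.

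Btg1 and Btg2, the antiproliferative adaptors, showed no change that passed. Btg2 had signals of 5800 and 4862 in RA-Dex lungs and 4579 and 4311 in Dex lungs, against 4512 and 4049 in RA lungs and 5010 and 3918 in Dil lungs. The RA-Dex pair lay above both the Dex and the RA pair but overlapped the Dil pair, which spread widely. The log2 fold change of Btg2 with dexamethasone was 0.16 ± 0.12 SE (n = 4 against 4, limma adjusted p = 0.50), with a 95% interval of -0.10 to 0.41.

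Btg1 had signals of 1596 and 1990 in RA-Dex lungs and 1685 and 1487 in Dex lungs, against 1601 and 1758 in RA lungs and 2274 and 1209 in Dil lungs. Both the highest and the lowest array were Dil arrays. Its log2 fold change with dexamethasone was 0.01 ± 0.19 SE (adjusted p = 0.986), with a 95% interval of -0.40 to 0.42. The mouse annotation also lists copies of Btg1 named Btg1b and Btg1c, and whether the probes tell them apart was not tested. Both BTG genes are known to be abundant in resting lymphocytes. Of 6 tested markers of B and T lymphocytes, 3 fell in the dexamethasone arrays, and their summed signal over 11 genes was 3335 to 3766 in RA-Dex lungs, 2613 to 2978 in Dex lungs, 4613 to 5419 in RA lungs and 4803 to 5365 in Dil lungs. The largest signal in that sum was the B cell gene Ighm, at 1677 and 1341 in RA-Dex, 1116 and 1222 in Dex, 2173 and 2384 in RA and 2265 and 2456 in Dil lungs. Of the T cell genes, Cd3d, Cd3e, Cd3g and Cd8a were under 85.3 on most arrays. Cd4 and Thy1 overlapped between the sides. With the other T cell genes named here so low, whether T cell genes fell could not be judged. The part of lymphocytes in the values of Btg1 and Btg2 was not tested, and in whole lung fewer cells of a type and less RNA per cell cannot be told apart.

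Ddit3, the CHOP transcription factor, varied little. Its signals were 364 and 407 in RA-Dex lungs and 445 and 357 in Dex lungs, against 456 and 424 in RA lungs and 415 and 432 in Dil lungs. The Dex pair alone spanned most of the range of all 8 arrays. The log2 fold change with dexamethasone was -0.14 ± 0.18 SE (n = 4 against 4, limma adjusted p = 0.735), with a 95% interval of -0.53 to 0.25.

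**Figure D2:**
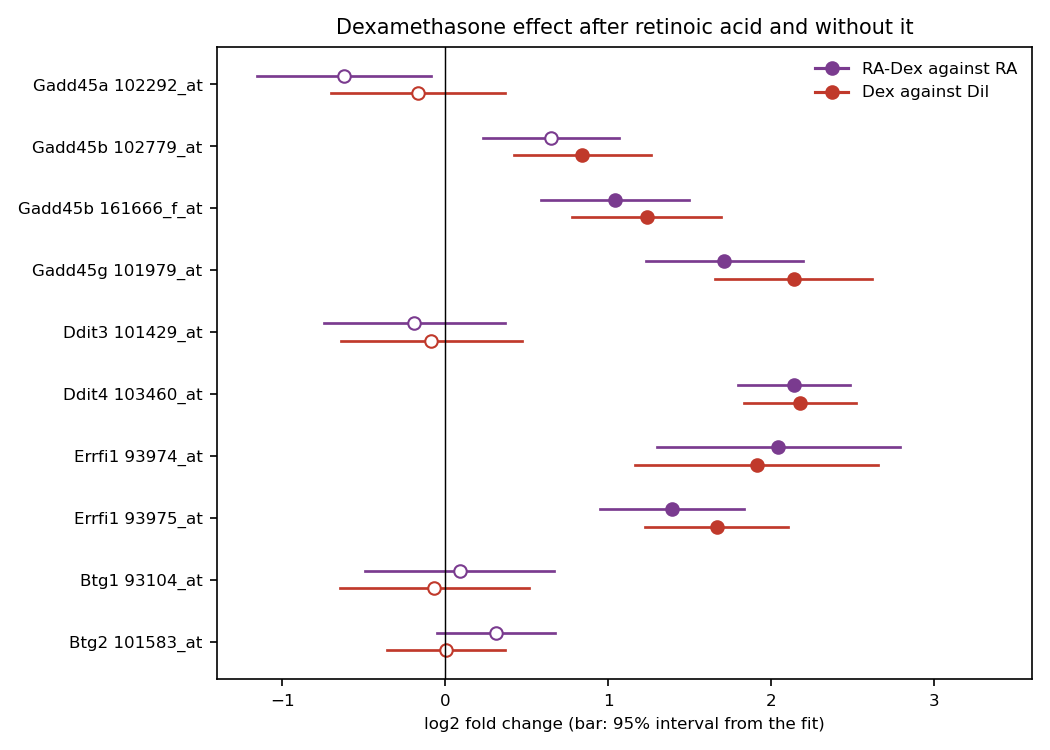
Log2 fold change of each probe set in RA-Dex against RA (upper point) and in Dex against Dil (lower point), each with its 95% interval from the fit, filled where the adjusted p was under 0.05. Ddit4 lies at 2.14 and 2.18, both Errfi1 probe sets and Gadd45g lie above 1, and the intervals of Ddit3, Btg1 and Btg2 include 0 in both comparisons.

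The 4 rises did not differ detectably between lungs with and without retinoic acid. In each of the comparisons of 2 arrays with 2, 4 of the 8 genes rose and 0 fell, where 2.28% of all probe sets rose in RA-Dex against RA and 2% in Dex against Dil. At an unadjusted p under 0.05 limma gave 1 fall among the 8 genes in RA-Dex against RA and 0 in Dex against Dil, where 1155 and 1086 of the 7309 probe sets were under it in either direction. The interaction (the log2 fold change of RA-Dex over RA less that of Dex over Dil) passed for 0 of the 8 genes in limma, and 0 had an unadjusted p under 0.05, where 0.0137% of all probe sets passed and 409 had an unadjusted p under 0.05. For Ddit4 the interaction was -0.04 (95% interval -0.52 to 0.45) on the log2 scale. For Gadd45g it was -0.43 (-1.11 to 0.26), for Errfi1 on 93975_at -0.27 (-0.89 to 0.35) and for Gadd45b on 161666_f_at -0.19 (-0.84 to 0.45). With 2 arrays in a group these intervals still allow a response of Gadd45g about 1 log2 unit smaller after retinoic acid.

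Retinoic acid itself changed none of the 8 genes past the threshold. In RA-Dex against Dex 0 of 8 passed in limma and 0 had an unadjusted p under 0.05, where 0.0958% of all probe sets passed and 302 had an unadjusted p under 0.05. In RA against Dil 0 of 8 passed and 1, Gadd45b, had an unadjusted p under 0.05, where 0.0274% of all probe sets passed and 584 had an unadjusted p under 0.05. The RA arrays were both above the Dil arrays for 3 genes, Gadd45a, Gadd45b (161666_f_at) and Gadd45g, a pattern that 17.7% of all probe sets showed. Their log2 fold changes there were 0.29 ± 0.24 (limma adjusted p = 0.829), 0.47 ± 0.21 (0.611) and 0.47 ± 0.22 (0.625). In RA-Dex against Dex, Gadd45b on that probe set and Btg2 did not overlap, both higher in RA-Dex, as did 16.3% of all probe sets, with 0.27 ± 0.21 and 0.26 ± 0.16 (adjusted p = 0.9998 for both). None of the 8 lay below without overlap, where 18.5% of all probe sets did. Ddit4 was the most closely bounded member, at 0.01 in RA-Dex against Dex (95% interval -0.34 to 0.35) and 0.05 in RA against Dil (-0.30 to 0.39).

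**Figure D3:**
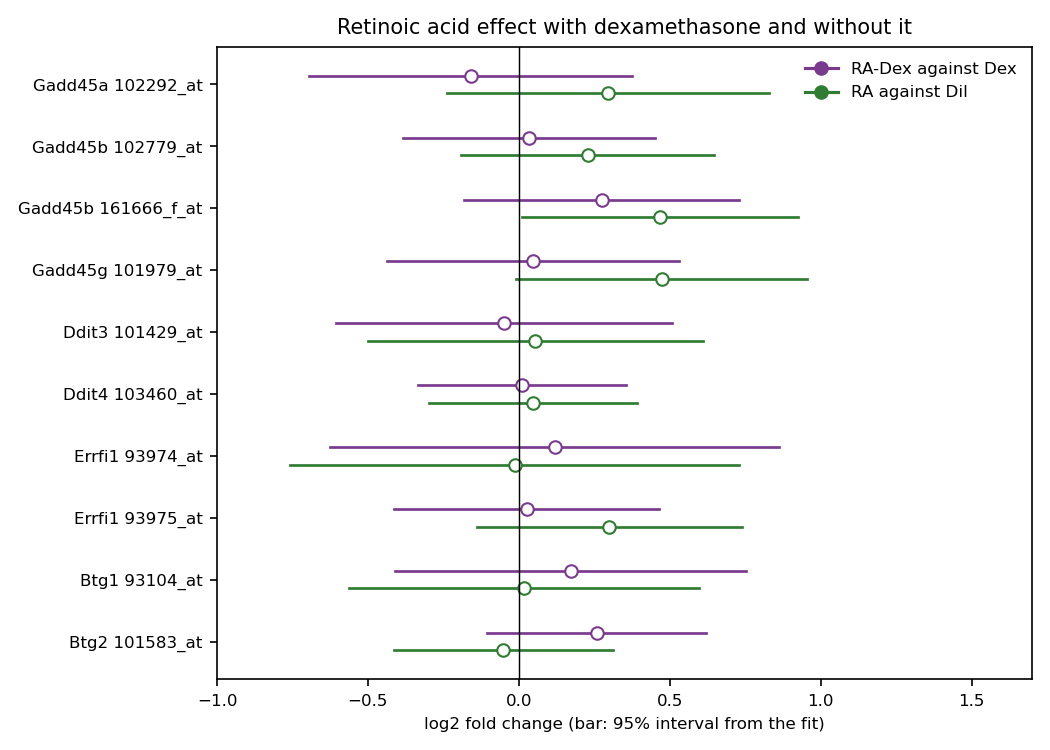
Log2 fold change of each probe set in RA-Dex against Dex (upper point) and in RA against Dil (lower point), each with its 95% interval from the fit; open points have an adjusted p of 0.05 or more. All points are open, and those of Gadd45b (161666_f_at) and Gadd45g in RA against Dil, both at 0.47, lie farthest to the right.

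The genes around these members were described in 7 lists, each gene by its brightest tested probe set and without the 8 members. These lists were drawn up with earlier results of these data known. Over all probe sets 4.26% rose and 3.57% fell with dexamethasone. In the p53 and cell cycle arrest list, 5 of 19 tested genes rose and 3 fell with dexamethasone, with a median of 0.08. Cdkn1a, the p21 inhibitor that Gadd45 proteins bind, rose 3.83-fold (1.94 ± 0.14 SE, limma adjusted p = 1.2e-05), and Sesn1, a stress-induced inhibitor of mTORC1, rose 2.85-fold (1.51 ± 0.11, adjusted p = 1.55e-05). Ccng2, a cyclin of arrested cells, rose 1.85-fold (adjusted p = 0.00201), and Plk2, a kinase induced by p53, fell to 0.382 of its level (adjusted p = 0.00175). The other rises were Wee1 (0.79) and Cdkn1c (0.56), and the other falls Phlda3 (-0.63) and Pcna (-0.44), 4 genes named after their values were seen. When Dex replicate b was left out 3 genes of the list rose. When Dex replicate a was left out, or the filter dropped, 1 fell.

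In the list around the p38 and JNK pathways, which holds their kinases at several levels (Map3k4 and other MAP3 kinases included), phosphatases and transcription factors, 2 of 14 tested genes rose and 0 fell (2 rises and 2 falls at an unadjusted p under 0.05 in limma, median 0.03). These were Dusp1, the phosphatase that switches off p38 and JNK (1.17 ± 0.11, adjusted p = 7.83e-05), and the transcription factor gene Jun (0.72 ± 0.17, adjusted p = 0.0285). Map3k4 itself stood at -0.71 ± 0.28 (adjusted p = 0.168) and Mapk8, which encodes JNK1, -0.31 ± 0.14 (adjusted p = 0.21). Jun did not pass when Dex a, RA-Dex a, RA-Dex b, RA b or Dil b was left out, or with no filter or no intensity trend (adjusted p 0.0642 to 0.193). When Dex a was left out 1 gene of the list fell.

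Among the partners of Ddit3, the integrated and endoplasmic reticulum stress genes, 2 of 23 rose and 0 fell (5 rises and 2 falls at an unadjusted p under 0.05 in limma, median 0.07). Herpud1, which helps clear misfolded proteins, rose 2.02-fold (1.01 ± 0.11, adjusted p = 0.000216). Dnajb9, a chaperone of the same compartment, passed narrowly (0.64 ± 0.16, adjusted p = 0.0399) and did not pass when any array other than Dil a was left out, nor in 3 other fits (0.0550 to 0.172). Other stress transcription factors of the list did not pass: Atf4 had -0.03 ± 0.11 (adjusted p = 0.925), Atf3 0.34 ± 0.15 (0.224) and Atf5 -0.57 ± 0.17 (0.0776). Trib3, a target of Ddit3, was below the filter.

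In the mTOR pathway list, in which Ddit4 acts, 3 of 20 genes rose and 1 fell (median 0.14). The rises were Foxo3, a transcription factor held back by Akt (1.49 ± 0.14, limma adjusted p = 6.78e-05), Txnip, a brake on glucose uptake (0.65 ± 0.10, adjusted p = 0.00226, with 1 other probe set of opposite sign), and the kinase Sgk1 (0.61 ± 0.10, adjusted p = 0.00256). Akt2 fell (-0.50 ± 0.13, adjusted p = 0.036) but did not pass when any array other than RA a was left out, nor in 3 other fits (0.0670 to 0.142); over all fits 0 to 2 genes of the list fell. Tsc2, through which Ddit4 acts, had -0.05 ± 0.14 (adjusted p = 0.876).

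Around Errfi1, 0 of 10 tested genes of ErbB signalling (the receptor gene Erbb3, the ligand gene Hbegf, and adaptors, kinases and other signalling genes) rose in limma (0 at an unadjusted p under 0.05) and 1 fell, the kinase gene Tnk2 (-1.27 ± 0.27, adjusted p = 0.0152, but 0.182 with no filter and 0.0676 when RA-Dex b was left out). Hbegf had -0.23 ± 0.16 (adjusted p = 0.476), and Egfr was below the filter. Around Btg1 and Btg2, the 10 tested genes were Tob1, subunits of the CCR4-NOT complex, the poly(A) genes Pabpc1, Pabpc4 and Pan2, and Prmt1, a methyltransferase that Btg proteins bind. None rose in limma (1 at an unadjusted p under 0.05) and 1 fell, Prmt1 (-0.65 ± 0.12, adjusted p = 0.00924, but 0.0678 with no filter and 0.0506 when Dex b was left out). Tob1, a relative of the BTG genes, had 0.45 ± 0.19 (adjusted p = 0.203), and Cnot7 was below the filter.

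Of 21 tested genes known to respond to glucocorticoids, 18 rose and 0 fell (0 falls at an unadjusted p under 0.05 in limma), with a median of 1.37. Rises made up 4.26% of all probe sets. This list too was drawn up with earlier results known, so its count is no independent evidence of a response. The list shares Cdkn1a, Cdkn1c, Dusp1, Sgk1 and Cebpb with the lists above. Zbtb16, a transcriptional repressor, had a log2 fold change of 3.97, Igfbp3 3.38 and Cebpd 2.04. Fkbp5, a chaperone of the glucocorticoid receptor, rose 5.24-fold (2.39 ± 0.11, adjusted p = 8.84e-07), and Ddit4 4.46-fold. The gene of the receptor itself, Nr3c1, was below the filter.

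**Figure D4:**
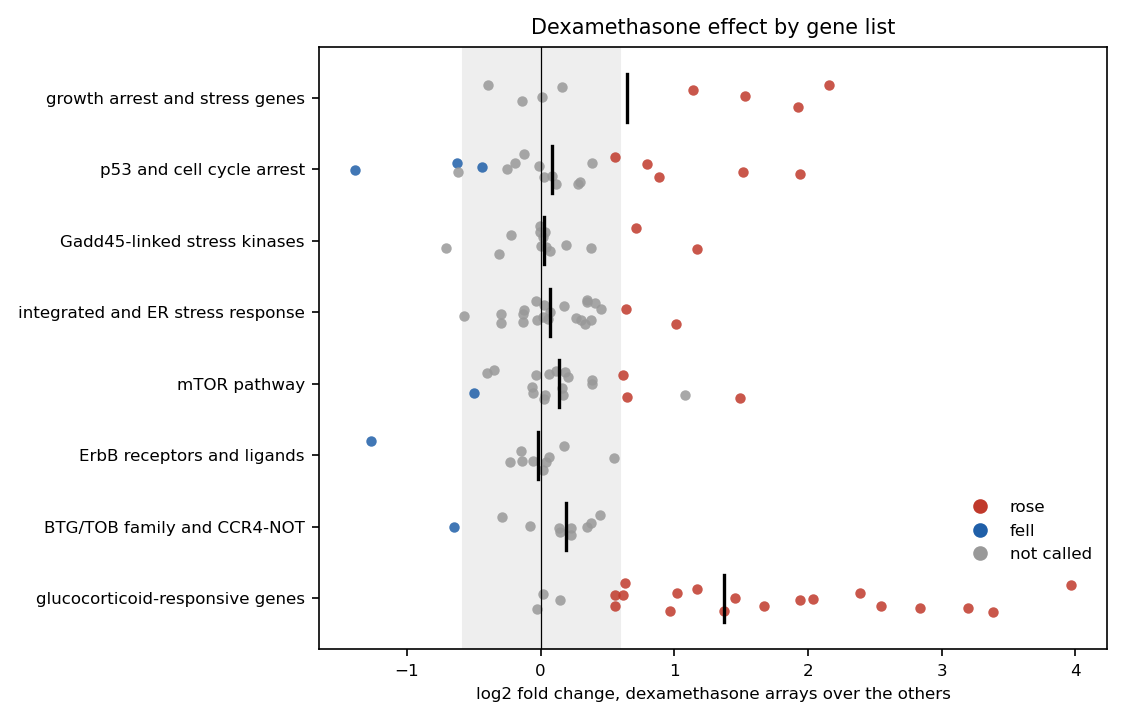
Log2 fold change of each tested gene, the 4 dexamethasone arrays over the other 4, by gene list, with a black line at each list's median and a grey band from the 5% to the 95% quantile of all 7309 probe sets (-0.58 to 0.59). The lists labelled by ErbB receptors, stress kinases and BTG/TOB also hold the partner genes given in the text. The 4 called members lie to the right of the band at 1.14 to 2.16, and the other 4 lie inside it.

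The genes whose log2 signal followed each member most closely were found among 5617 other genes over the 8 arrays. The arrays fall into a set with and a set without dexamethasone, so Pearson's r is given only as a description. Ddit4 was followed by Hk2, the hexokinase of glycolysis (r = 0.996), Igfbp3, a binding protein of insulin-like growth factors (0.996), and Otulinl (0.991). Gadd45g was followed by the transcription factor Cebpd (0.994), the calcium sensor Hpcal1 (0.992) and the kinase Map3k6 (0.988). Errfi1 was followed by the chaperone Hsph1 (0.986), the autophagy gene Gabarapl1 (0.985) and Otulinl (0.985). Gadd45b was followed by the Golgi mannosidase Man2a1 (0.980), Marcks (0.974) and Hpcal1 (0.973).

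For each of these 4 members 107 to 155 genes had an r over 0.9, and for the other 4 between 1 and 17. Gadd45a was closest to Sfrp2, a secreted Wnt modulator (0.954), Csf2ra (0.949) and Vkorc1 (0.948). Ddit3 was closest to Sh3bp2 (0.946), Coil (0.941) and the mitochondrial chaperone Hspa9 (0.936). Btg1 was closest to the metabolic enzymes Dld (0.963) and Pgam1 (0.950) and to Fgl2 (0.947). Btg2 was closest to the homeobox gene Hoxa5 (0.940), the only gene above 0.9, and then to Calm4 (0.876) and Ddc (0.873).

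The labelled tissue was borne out by high signals of the lung genes Sftpc (61590 to 84340) and Scgb1a1 (40350 to 52030) on all arrays. Median signals of the arrays were 316 to 342. The ratio of 3' to 5' control probe sets was 1.38 to 1.93 for Gapdh and 1.36 to 1.86 for beta-actin. Summed signals of 13 macrophage markers were 20036 to 21965 in RA-Dex, 21502 to 21708 in Dex, 26701 to 27138 in RA and 24819 to 25381 in Dil lungs, and 2 of the 10 tested fell with dexamethasone. Of 8 tested lung epithelium markers 2 rose with dexamethasone, and the summed signals of 9 were 200181 to 213302 in RA-Dex, 178594 to 180596 in Dex, 179894 to 193854 in RA and 159057 to 199857 in Dil lungs. Of 8 tested endothelial markers 1 fell, and their sums were 29299 to 33843 in RA-Dex, 27472 to 28354 in Dex, 32671 to 32737 in RA and 32751 to 33448 in Dil lungs. Of 7 tested neutrophil markers 1 rose and 0 fell. The rise was that of Lcn2, which is also on the list of genes known to respond to glucocorticoids. S100a8 and S100a9 overlapped between the sides. Summed signals of 9 neutrophil markers, Lcn2 among them, were 9978 to 11374 in RA-Dex and 7648 to 8900 in Dex lungs. They were 9099 to 9814 in RA and 5699 to 7257 in Dil lungs. Of 4 erythroid markers 1 fell. The part of these cell types in the members' values was not tested. Summed signals of 14 skeletal muscle markers were 4671 to 4795 in RA-Dex, 3398 to 4050 in Dex and 3503 to 5159 in RA lungs, against 6456 to 6966 in Dil lungs, and those of 9 heart muscle markers 22699 to 22740 in RA-Dex, 18169 to 18830 in Dex and 22070 to 22815 in RA lungs, against 26635 to 27593 in Dil lungs. Without both Dil arrays, an alternative chosen after the data were seen, the same 4 members were called for dexamethasone, with log2 fold changes of 2.14 for Ddit4, 1.69 for Gadd45g, 1.38 for Errfi1 and 0.90 for Gadd45b (limma adjusted p at most 0.0131).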

How the data were processed

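Whole-lung RNA of mice was hybridised to 8 single-colour Affymetrix arrays. The authors deposited 1 intensity per probe set and array, linear in scale; no label used here names the software. The values show that the authors had scaled the arrays, since the means trimmed by 2% at each end were 800.4 throughout. Because these differed by less than 1.1-fold, no further normalization was done. The number of arrays limits the precision.

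Signals under 85.3 (the 25th percentile of all values) were set to that floor and taken as log2. After 66 control probe sets were left out, 7309 of 12422 had a mean above the 40th percentile (signal 200.8) and were tested. Annotation symbols were updated by Entrez ID through a RefSeq gene table (GRCm38.p6, names only): 10833 probe sets had 1 symbol, 10817 of them matched, 396 had several and 1193 had none.

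limma 3.58.1 in R 4.3.3 fitted 1 mean per group over all 8 arrays (4 residual and 6.69 prior degrees of freedom, intensity trend, two-sided, Benjamini-Hochberg over all probe sets of a contrast). Where a gene had several tested probe sets, the one with the highest mean signal stood for it. Errors are SE, and 95% intervals are not adjusted for multiple tests. The procedure was run on simulated data with independent noise, for the comparison of all dexamethasone arrays with the others only. The comparisons within a single arm were not checked in this way.

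The members and lists were chosen with earlier results of these data known. From each list, up to 4 genes by smallest p for dexamethasone were named, plus Cdkn1a, Atf4, Atf3, Trib3, Tsc2, Egfr, Tob1, Cnot7, Fkbp5 and Nr3c1, and for each member the 3 closest patterns. No pairing by replicate letter was evident: same-letter deviations correlated at -0.22 to 0.14 between groups. This cannot exclude a shared animal, litter or day, which the labels do not give.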

Additional observations from a re-analysis of the deposited data

How the results depend on the processing

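Over both arms 4 members rose with dexamethasone under quantile normalization, a stricter filter (60th percentile), no filter, no intensity trend, a pseudocount instead of the floor and every fit that left out 1 array. With the replicate letter as a replicate block 4 members rose in that comparison and in each arm, and the 102779_at call of Gadd45b in Dex against Dil was lost (adjusted p = 0.0740). In Dex against Dil the 4 rises became 2 with no filter, 3 with no intensity trend and 3 to 4 when 1 array was left out. In RA-Dex against RA they became 2 with no filter, 3 with no intensity trend and 2 to 4 when 1 array was left out (2 for RA-Dex b). The members lost were Gadd45b and Errfi1, whose fold changes are not altered by the filter. The fit with no filter tests 12422 probe sets in place of 7309. It also estimates the shared spread anew from all of them, so the unadjusted p-values change as well. In the fits without 1 array a group left with 1 array was assumed to vary like the others. No call of a member for RA-Dex against Dex, RA against Dil or the interaction appeared under any of these settings, and 0 member calls reversed. The dimmer Errfi1 probe set, 93974_at, lost its call over both arms with no filter (adjusted p = 0.0589). Over both arms the log2 fold change ranged from 2.04 to 2.19 for Ddit4, 1.77 to 2.05 for Gadd45g, 1.41 to 1.65 for Errfi1 (93975_at) and 1.01 to 1.27 for Gadd45b (161666_f_at). Among the list genes, Pcna lost its call in 10 settings, Wee1 in 5, Cdkn1c in 3, and Plk2 and Phlda3 in 1 each. Over all probe sets, the 572 dexamethasone calls became 349 with no filter and 309 to 537 when 1 array was left out. The 236 calls in Dex against Dil became 96 with no filter, 112 with no intensity trend and 80 to 273 when 1 array was left out, and the 256 in RA-Dex against RA became 143, 126 and 81 to 250. With no filter the 7 calls in RA-Dex against Dex became 16, the 2 in RA against Dil 11 and the 1 interaction 22, and leaving out RA b gave 16 in RA against Dil. Signals near the floor limit what can be seen, but no member was at the floor on any array.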

Other observations

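Other regulators on the list of genes known to respond to glucocorticoids rose in the same lungs. Klf9, a transcription factor that opposes proliferation, rose 2.74-fold with dexamethasone (log2 fold change 1.45 ± 0.11 SE, limma adjusted p = 1.87e-05), and Nfkbia, which holds back NF-kappaB, rose 2.59-fold (1.37 ± 0.13, adjusted p = 7.86e-05). Per1, a clock gene, rose 3.19-fold (1.67 ± 0.14, adjusted p = 3.72e-05). These were chosen after their values were seen.

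Irs2, an adaptor of the insulin receptor, is a gene of the mTOR list that did not pass with dexamethasone (1.08 ± 0.41, adjusted p = 0.158). Its signals were 580 and 468 in RA-Dex lungs and 427 and 654 in Dex lungs, against 368 and 285 in RA lungs and 47.7 and 422 in Dil lungs. The low array, Dil replicate a, was under the floor.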
